A study of Mus musculus with 32 samples.

Results

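Among the open chromatin regions of mouse dendritic cells (DC), 626 of 88757 regions on the autosomes (0.705%) were called in at least 4 of 6 libraries of resident conventional type 2 DC (cDC2) and in at most 2 of 22 libraries of the other DC subsets. They are called cDC2-restricted regions below. The members were selected on these measured peak calls, so the difference in calls between cDC2 and the other subsets is a description and no result. The study profiled DC of the skin-draining lymph nodes by Omni-ATAC-seq, in which the transposase Tn5 inserts sequencing adapters into accessible DNA, and asked whether signalling through the interferon-γ receptor shapes DC chromatin. Resident cDC1 and cDC2 and migratory migDC1, migDC2 and DN migDC (a further migratory subset) were taken from animals whose Ifngr1 alleles are floxed, either without Cre (CD11cCREneg/IFNgr1flfl, Cre-negative) or with it (CD11cCREpos/IFNgr1flfl, Cre-positive). Each genotype had 3 libraries of every subset except migDC1, which had 2. Another 4 libraries of migDC2 came from 2 wild-type and 2 germline knockout (IFNgr1-/-) samples and took no part in the thresholds. All floxed groups, the Cre-negative controls included, carry the altered alleles, and deletion rests on the CD11c promoter that drives Cre. The labels give no ages or strains, nor say whether libraries came from separate mice, so the spread between them may be technical.

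Conventional DC fall into a cDC1 lineage, which depends on IRF8 and BATF3 and cross-presents antigen, and a cDC2 lineage, which carries CD11b and SIRPα, depends largely on IRF4, and in lymphoid organs on NOTCH2, and primes CD4+ T cells. Resident cells reach the node from the blood, whereas migratory cells arrive from the skin through lymph in a mature state. Accessible regions away from start sites often are enhancers, which differ more between cell types than promoters do.

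The sequences of some members can be shown where a RefSeq promoter window lies under them. Of the 626 regions, 16 touched 15 windows of the GRCm38.p6 table, each running from 250 bases before to 50 bases after a start site. The first pair shown belongs to Sirpb1b and Sirpb1c, neighbouring genes of the signal-regulatory protein β family, because both had a cDC2-restricted region over the start site. The regions were chr3:15574785-15575269 (Sirpb1b, called in 5 of 6 cDC2 libraries and in no other) and chr3:15848384-15848645 (Sirpb1c, called in 6 of 6 and in no other). The stretches shown are chr3:15575066-15575182 and chr3:15848529-15848645 of build mm10, both on the minus strand and upstream of the start site, written 5′ to 3′, with capitals at the bases that differ between them.
Sirpb1b: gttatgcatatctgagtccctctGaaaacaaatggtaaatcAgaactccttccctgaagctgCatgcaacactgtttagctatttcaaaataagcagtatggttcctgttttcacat
Sirpb1c: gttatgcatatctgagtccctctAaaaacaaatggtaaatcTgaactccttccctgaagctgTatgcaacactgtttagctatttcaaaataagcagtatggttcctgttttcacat
These stretches were identical at 114 of 117 positions (97.4%). Reads from such near-identical copies can be hard to place, and how the authors treated such reads is not stated in the labels, so the calls at this pair are uncertain.

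The next sequences are upstream stretches of other members at start sites, shown because they hold letters of a motif of a DC regulator. Capitals mark the motif. The Ugt1a6a stretch, chr1:88134559-88134808 on the plus strand, lies in a region called in 6 of 6 cDC2 and 1 other library, and holds an AP-1 match (TGANTCA). Gm45969 is a non-coding gene whose span includes all of Clec7a, which encodes the fungal β-glucan receptor Dectin-1. The Gm45969 stretch, chr6:129460102-129460351 on the plus strand, holds a RUNX match (TGTGGTT, here on the other strand). Sppl2c, chr11:104186077-104186326 on the plus strand, holds a KLF match (GGGNGTGG, on the other strand). Gm41558 lies beside Pim1, which encodes a serine/threonine kinase, and its stretch, chr17:29483366-29483551 on the plus strand, holds a PU.1 match (GAGGAAGT) and 2 KLF matches, all on the other strand.
Ugt1a6a: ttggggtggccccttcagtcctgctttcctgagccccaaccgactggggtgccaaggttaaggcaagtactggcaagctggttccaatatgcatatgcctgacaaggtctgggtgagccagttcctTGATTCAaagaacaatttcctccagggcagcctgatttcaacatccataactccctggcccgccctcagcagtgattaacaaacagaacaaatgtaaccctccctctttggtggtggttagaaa
Gm45969: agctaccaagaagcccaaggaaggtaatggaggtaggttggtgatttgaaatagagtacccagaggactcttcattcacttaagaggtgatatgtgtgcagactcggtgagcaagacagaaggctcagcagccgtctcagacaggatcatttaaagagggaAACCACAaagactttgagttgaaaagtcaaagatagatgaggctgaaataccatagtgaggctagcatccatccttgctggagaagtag
Sppl2c: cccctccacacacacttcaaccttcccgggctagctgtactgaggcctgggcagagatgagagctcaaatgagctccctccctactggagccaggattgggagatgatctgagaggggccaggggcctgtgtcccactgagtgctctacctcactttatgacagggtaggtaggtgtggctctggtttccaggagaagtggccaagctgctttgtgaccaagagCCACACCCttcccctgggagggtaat
Gm41558: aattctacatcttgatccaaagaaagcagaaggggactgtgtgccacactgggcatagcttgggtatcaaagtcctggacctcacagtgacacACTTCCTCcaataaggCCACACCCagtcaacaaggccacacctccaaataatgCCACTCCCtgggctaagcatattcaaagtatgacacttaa
Over the 15 windows searched on both strands, the KLF letters stood in 6 (40%, against 17.7% of all 31365 windows) and the C/EBP letters TTGCNNAA in 3 (20% against 10.9%). The PU.1 letters stood in 2 (13.3% against 3.25%), the RBPJ letters GTGGGAA in 2 (13.3% against 6.33%), AP-1 in 1 (6.67% against 7.85%) and RUNX in 1 (6.67% against 5.32%). The other 7 motifs, among them the ETS-IRF composite GGAANTGAA and the E-box CAGGTG bound by ZEB factors, stood in none. A match is a description of these letters and no evidence of binding, and 15 windows are few. The windows at members had a median GC content of 49.0% and a median of 3 CpG dinucleotides, against 53.0% and 7 in all windows, and spanned 38.0% to 75.3% GC.

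The libraries differed in the length of their peak lists, and that bears on every count of calls. The cDC2 lists were the shortest of the floxed subsets, with 46295.7 ± 7408.6 autosomal peaks (SD, n = 6), beside means of 54432.8 in migDC1, 61040.8 in cDC1, 61957.3 in migDC2 and 62628.3 in DN migDC. The lists give no read counts, so depth is unknown, and an absent call can mean closed chromatin or a peak too weak for that list. In cDC1 Cre-negative 2, 91.6% of the peaks touched a region of the consensus, the lowest share, against 94.0% to 100% in the other 31 libraries. No libraries were duplicates, since the most alike pair shared 90.6% of their regions. As a check of the labels, 25.4% to 41.8% of the regions at listed cDC1 genes were called in the cDC2 libraries, against 60.3% to 78.4% in the cDC1 libraries. The regions at listed cDC2 genes were called at 51.1% to 72.5% in cDC2 and 48.3% to 68.6% in cDC1, so these raw shares overlapped. Of all 88757 regions, the cDC2 libraries called 35454 to 52537 and the cDC1 libraries 47083 to 63425. The shares at both gene lists were not adjusted for this difference.

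In the Cre-negative cDC2 libraries, 574, 582 and 305 of the 626 regions were called, and the lists held 45868, 54413 and 37812 peaks. The Cre-positive cDC2 libraries had calls at 596, 378 and 590, with 45946, 38633 and 55102 peaks. The low libraries, Cre-negative 3 and Cre-positive 2, had the shortest lists, and 164 members were missing from exactly this pair. A call in all 6 cDC2 libraries was made at 173 members, in 5 at 175 and in 4 at 278. Just outside the rule lay 436 regions with 3 cDC2 calls and at most 2 calls elsewhere. Their median signal percentile in the cDC2 lists (0 weakest, 100 strongest) was 13.7, beside 16.2 for the members with 4 calls. Another 189 regions had enough cDC2 calls but 3 calls elsewhere, with a median percentile of 23.2, beside 22.4 for the members with 2 calls elsewhere. The label "only" held strictly for 277 members, with no call in the 22 other libraries, while 179 had 1 such call and 170 had 2. The strictest class, 6 of 6 and 0 of 22, held 73 regions.

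**Figure D1:**
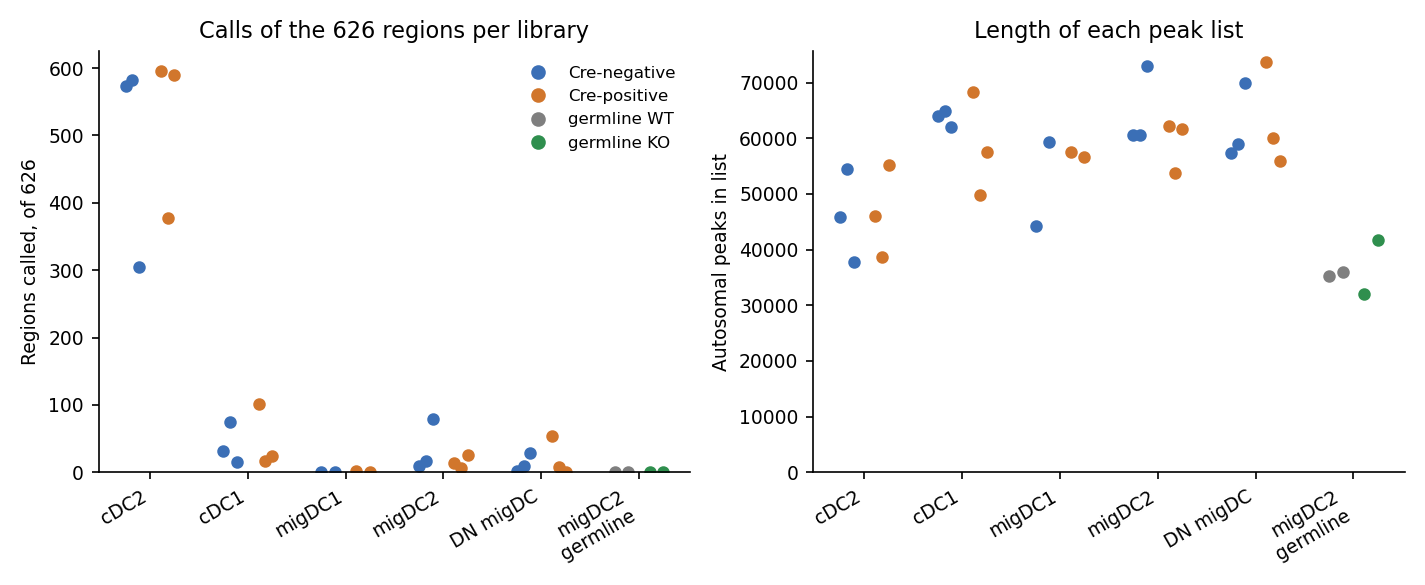
Left, number of the 626 cDC2-restricted regions called in each library (points), by subset; right, number of autosomal peaks in each list. Cre-negative libraries are blue, Cre-positive orange, germline wild type grey and germline knockout green. The cDC2 libraries lie between 305 and 596, and the highest other library, cDC1 Cre-positive 1, lies at 102. This gap is set by the rule that selected the regions.

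The calls elsewhere were unevenly spread. There were 263 in the 6 cDC1 libraries, 151 in migDC2, 102 in DN migDC and 3 in the 4 migDC1 libraries. By library they ran from 15 to 102 in cDC1, 6 to 79 in migDC2, 1 to 54 in DN migDC and 0 to 2 in migDC1. The highest were cDC1 Cre-positive 1 (102), migDC2 Cre-negative 3 (79), cDC1 Cre-negative 2 (74) and DN migDC Cre-positive 1 (54), all with long lists. Across these 22 libraries the number of members called was higher in longer lists (Pearson's r = 0.71, Spearman's ρ = 0.80, given as a description). The calls elsewhere came from weak peaks: their median percentile in the list they came from was 13.8 in cDC1, 8.22 in migDC2, 12.3 in DN migDC and 7.80 in migDC1. Of all 519 calls, 35 were at or above the 50th percentile, 24 of them in cDC1 Cre-negative 2.

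The germline migDC2 lists, which the thresholds did not use, held 1 of the 626 regions (0.16%) in at least 1 of 4 libraries, where 45.9% of all regions were called. This was chr19:5831312-5832416 in the non-coding gene Neat1, the RNA scaffold of paraspeckles, called in the knockout library 2. The germline lists were the shortest of the series, with 32088 to 41759 peaks against 53688 to 72986 in floxed migDC2, and the members are weak regions. Among the 2378 regions that met the rule with floxed lists of equal length, 11.4% had a germline call. Regions with at most 2 of 22 calls outside cDC2 are already rare in floxed migDC2, and of the 1634 other such regions 59 (3.61%) had a germline call. The germline lists did take part in forming the consensus regions. These other regions had fewer cDC2 calls, so germline peaks may have helped to form some of them. The share of 3.61% can be raised by this and is no like comparison for the 0.16%. Of the 7467 regions restricted to cDC1 by the same thresholds none was called, and of the 1859 regions called in cDC2 and migDC2 but not cDC1, 70.1% were. With 2 libraries per germline genotype the smallest exact two-sided p is 0.333, so the genotypes were not compared.

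By position, cDC2-restricted regions lay away from gene ends. Within 1000 bp of an end of a protein-coding gene were 37 regions (5.91%), against 17.2% of all regions and 5.02% of the cDC1-restricted ones. The gene bodies held 297 (47.4%, against 46.5%), 202 (32.3%, against 26.9%) lay up to 50000 bp from the nearest gene and 90 (14.4%, against 9.43%) lay farther. The distal members had a median distance of 12070.5 bp to their gene. Non-coding RefSeq genes overlapped the midpoint of 81 members (12.9%, against 11.8% of all regions), among them Mexis, a long non-coding RNA near Abca1, and Neat1 with 2 members. Position was not part of the rule, but the consensus holds more strong, widely shared regions at gene ends, and signal strength was not matched between the sets.

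**Figure D2:**
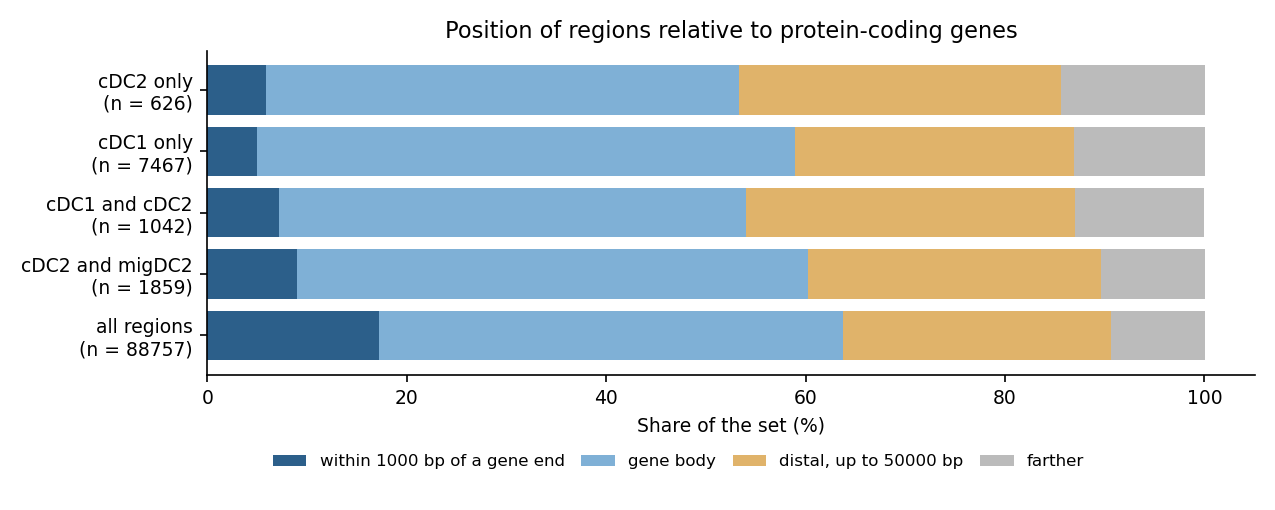
Share of regions (%) by position relative to protein-coding genes, for cDC2-restricted regions, cDC1-restricted regions, regions of both resident subsets, regions of cDC2 and migDC2, and all regions, with the number of regions in parentheses. The share at gene ends is 5.91% in the cDC2-restricted regions and 17.2% in all regions.

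The regions were short and weak in the cDC2 lists themselves. Their median width was 403 bp (range 147 to 2799 bp), against 570 bp over all regions and 364 bp over the cDC1-restricted regions. The median percentile of their peak signal, taken over the cDC2 lists with a call, ran from 3.01 to 69.3 with a median of 21.1, and it was under 50 for 603 of 626. Per library, the median over the members called was 20.2, 26.8 and 15.4 in the Cre-negative and 18.4, 14.1 and 30.5 in the Cre-positive lists. Regions called in all 28 floxed libraries had medians from 67.8 to 78.1 in the same lists. The cDC1-restricted regions had medians from 20.3 to 34.6 in the cDC1 lists, so low percentiles were not particular to the cDC2 set. The median was 16.2 for members with 4 cDC2 calls, 20.8 for 5 and 30.6 for 6. For 77 members at least 1 cDC2 call came from a peak that also overlapped a neighbouring region, and 585 members remained when such calls were left out.

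Constitutively open regions lay near many members. A region called in all 28 floxed libraries lay within 10000 bp of 326 members (52.1%, against 44.2% of the other regions). A region restricted to cDC1 lay as near to 70 (11.2%, against 14.6%) and a region called in migratory but not resident DC to 67 (10.7%, against 15.6%). At gene level the members fell to 471 genes, 425 of them with 1 member. A gene end was called in all 28 libraries for 309 of the 471 (65.6%, against 57.8% of the 15206 other genes with regions). For 200 of these genes (42.5%, against 25.8%) there was also a cDC1-restricted region, but genes with a member had more regions of any kind, a median of 9 against 3.

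Among genes, Il1r2 held the most cDC2-restricted regions by far. It encodes the type 2 interleukin-1 receptor, a decoy that binds interleukin-1 without signalling. Of its 23 regions, 10 were members, 6 were called in all 28 libraries and 1 in migratory DC but not resident DC. The members spanned 76.3 kb (chr1:40059159-40135482), around the gene at chr1:40084692-40125230, and 8 of them lay in its body. The neighbouring receptor gene Il1r1, which encodes the signalling receptor, had 18 regions with no member, and 6 of its regions were called in migratory but not resident DC. In the cDC2 libraries 10, 10 and 10 of the 10 members were called in the Cre-negative and 10, 7 and 10 in the Cre-positive lists. Elsewhere 3 cDC1 libraries and 1 migDC2 library had 1 call each and the remaining 22 libraries outside cDC2, the 4 germline ones included, had none.

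The strongest member, chr1:40099093-40100967 in the gene body of Il1r2, had percentiles of 69.6, 87.6 and 68.9 in the Cre-negative and 72.9, 34.4 and 62.2 in the Cre-positive cDC2 lists. The next, chr1:40096939-40098878, had 58.0, 77.0 and 89.4 in the Cre-negative and 72.6, 28.1 and 62.4 in the Cre-positive lists. The low value in both belongs to Cre-positive 2, in which the median over the called Il1r2 members was 21.3, against 55.5 to 74.0 in the other 5 libraries. Both ends of the gene, chr1:40084271-40086653 and chr1:40121526-40132507, were called in all 32 libraries, so the members lay between and beside regions shared by every subset. At equal list length, described below, 9 of the 10 remained members. Some Il1r2 calls came from peaks running over several regions, so the 10 are not independent of each other.

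**Figure D3:**
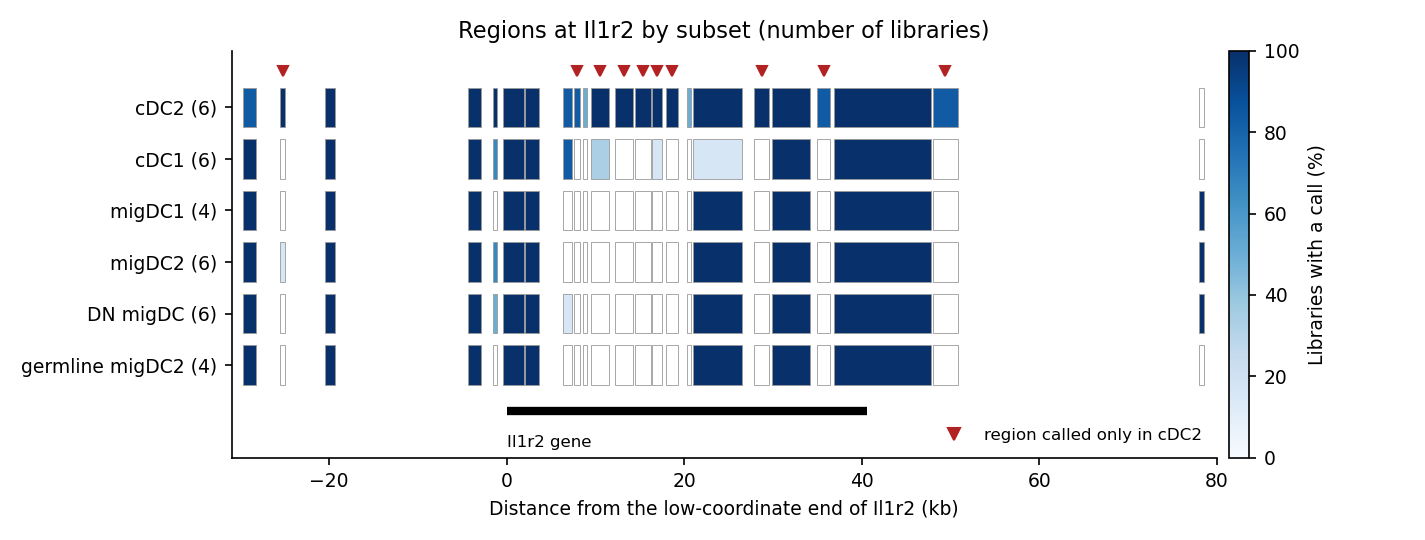
Regions at Il1r2 by distance in kb from its low-coordinate end (bar, the gene), with rows for subsets and, in parentheses, their number of libraries; shading gives the share of libraries with a call (%). Triangles mark the 10 cDC2-restricted regions, which fill the cDC2 row and are empty or pale in the other rows.

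The lectin receptor cluster on chromosome 6 came next among immune loci. Clec12b, Clec1a and Clec7a together held 6 members over 33.7 kb (chr6:129427348-129461008). The Clec1a member chr6:129453350-129454720, 1350 bp from the gene, was called in 6 of 6 cDC2 libraries and in none elsewhere, with percentiles of 31.5, 49.9 and 55.3 in the Cre-negative and 1.6, 51.9 and 48.9 in the Cre-positive lists. Clec7a had 3 members, with 5, 4 and 5 cDC2 calls and none elsewhere. One of them, chr6:129459868-129461008, holds the Gm45969 sequence shown above, with percentiles of 50, 17.4 and 5.9 in the Cre-negative lists and 17.8 and 26.3 in Cre-positive 1 and 2. All 3 Clec7a members were missing from Cre-positive 3, although that list was the longest of cDC2. Of the 3, 1 remained at equal list length, and both Clec1a members did.

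Cmip, which encodes the c-Maf-inducing protein, had 5 members among 53 regions, over 134.9 kb (chr8:117233233-117368090). Its strongest, chr8:117367295-117368090, was called in every cDC2 and no other floxed library, at percentiles of 53.5, 65.1 and 52.1 (Cre-negative) and 66.6, 54.6 and 63.4 (Cre-positive), which made it one of the most even members. Gas7 had a similar one at chr11:67559073-67560082, with 62.0, 60.4 and 53.0 (Cre-negative) and 63.3, 56.2 and 57.6 (Cre-positive). Other members among the 15 strongest of the strictest class lay at St6gal1, a sialyltransferase gene, at Nedd9 and Ptk2, which encode focal adhesion proteins, and at Cnot11, Slc36a3 and Vegfa. Cnot11, a subunit gene of the CCR4-NOT deadenylase, Cd300e, an activating receptor gene of myeloid cells, Cux1, Laptm5 and Fosl2 had 3 members each. Gm45988, a predicted gene, had 4 members, in a cluster of 7 at chr7:64077035-64087781.

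**Figure D4:**
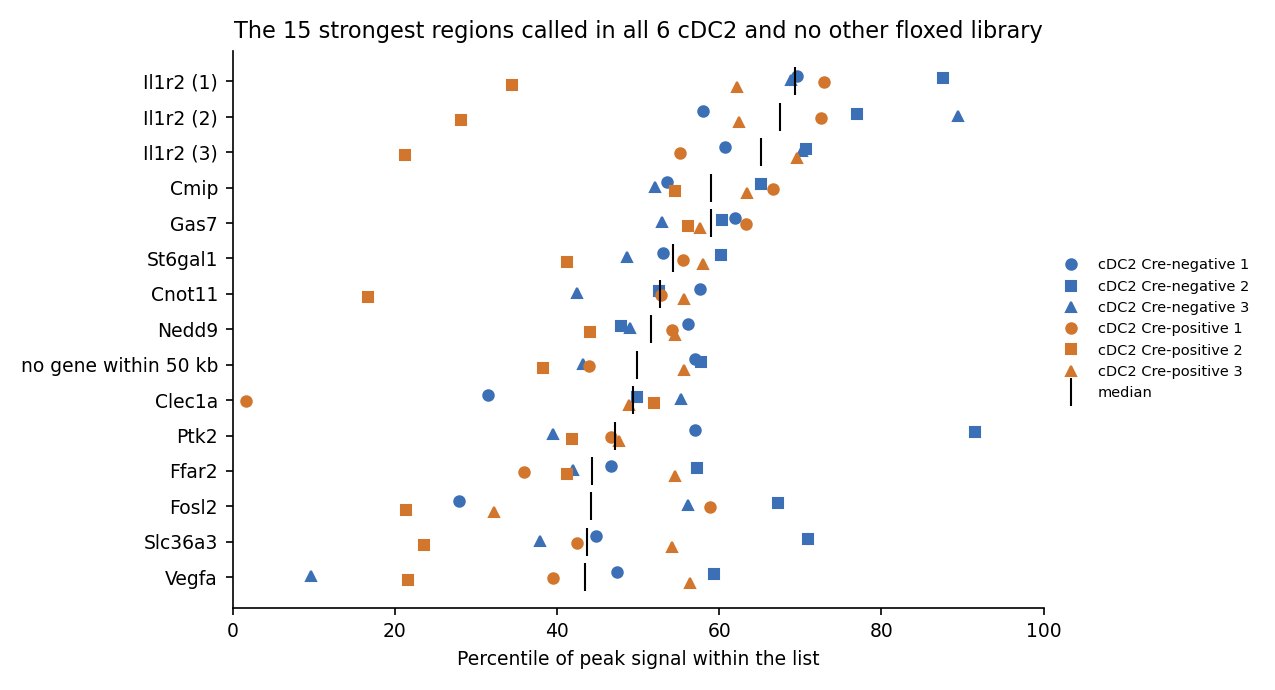
Percentile of peak signal within each cDC2 list (x axis) for the 15 cDC2-restricted regions of highest median percentile among those called in 6 of 6 cDC2 and 0 of 22 other floxed libraries (rows, by nearest gene). Points are libraries, blue for Cre-negative and orange for Cre-positive, and black ticks are medians, which run from 69.3 at Il1r2 to 43.5 at Vegfa.

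Of the listed cDC2 genes, 8 of 45 had a member, and 21 of their 331 regions (6.34%) were members, against 0.667% of all regions with a gene. Without Il1r2 it was 11 of 308 (3.57%). Besides Il1r2 and Clec7a these were Epha2, an ephrin receptor gene, and Ffar2, a receptor gene for short-chain fatty acids, with 2 members each, and C5ar1, the complement C5a receptor gene, Cx3cr1, Notch2 and Rbpj with 1 each. The Ffar2 member chr7:30838674-30839076 had percentiles of 46.6, 57.3 and 42.0 in the Cre-negative and 35.9, 41.2 and 54.6 in the Cre-positive lists and no call elsewhere. The C5ar1 member chr7:16250688-16251199, in the gene body, had 11.4, 35.4 and 6.9, then 20.9, 26.9 and 35.1, and no call elsewhere. The Epha2 member chr4:141329889-141330516, 505 bp from a gene end, had 42.0, 40.8 and 23.9, then 43.2, 37.5 and 45.0, again without a call elsewhere. Some of the list's genes were put there with results of these data known, so its share is no independent evidence.

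The best-known cDC2 genes had no member. Over all regions with a gene 0.667% were members, so most single genes would have none, and these zeros say little. Sirpa had 18 regions, Irf4 14, Klf4 8, Zeb2 19, Itgam (CD11b) 21, Esam 3, Cd4 2 and Clec4a4 2, with 0 members each. At Sirpa, 9 regions were called in 6 of 6 cDC2 libraries, and all of these were called in other subsets often enough to fail the rule. Itgam had a region, chr7:128116090-128116219, with 3 cDC2 calls and none elsewhere, 1 call short of the rule. Both Cd4 regions were called in all 28 floxed libraries. Xcr1 (6 regions), Irf8 (33) and Ifngr1 (16) also had none, which is read beside the same share. Notch2, the receptor on which splenic cDC2 depend, had 1 weak member of 26 regions, chr3:98087620-98087885, with 4 cDC2 calls and 1 call in migDC2. Rbpj, the DNA-binding partner of cleaved Notch, had 1 of 30, chr5:53586850-53587124, with 6 cDC2 calls and 2 calls in cDC1.

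Of the transcription factor genes of cDC2 development, 6 of 30 had a member, and 8 of 409 regions (1.96%) were members. The share over all regions with a gene, 0.667%, gives 2.73. The 8 include the Notch2 and Rbpj members already counted with the cDC2 genes, so the lists are not separate. Fosl2, an AP-1 subunit gene, had 3 in its gene body, of which chr5:32154803-32156530 was called in 6 of 6 cDC2 libraries at percentiles of 27.9, 67.3 and 56.1 (Cre-negative) and 58.8, 21.4 and 32.2 (Cre-positive), with no call elsewhere. Batf, Cebpb and Egr1 had 1 each. The Cebpb member, chr2:167686360-167686867, had 6 cDC2 calls and 2 elsewhere, and the Batf member, chr12:85673930-85674221, had 4 with a median percentile of 6.1.

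In the other pathway lists, some of which share genes with those above, the counts were small. They are read beside the 0.667% of all regions with a gene. Of the cytokine genes and receptors 11 of 433 regions (2.54%) were members, 10 of them at Il1r2 and 1 at Il10ra, the interleukin-10 receptor gene. C-type lectin receptors had 4 of 114 (3.51%), chemoattractant receptors 4 of 234 (1.71%; Ffar2, Cx3cr1 and Cmklr1, the chemerin receptor gene) and pattern recognition genes 3 of 223 (1.35%), with 2 at Syk, the kinase downstream of Dectin-1, and 1 at Irak3. The Syk member chr13:52646196-52647083 was called in 6 of 6 and in none elsewhere. Notch pathway genes had 3 of 286 (1.05%), Fc and complement receptors 1 of 116 (0.862%), MHC class II presentation genes 1 of 161 (0.621%, near H2-Eb2) and DC maturation and migration genes 3 of 580 (0.517%, at Cd83, Cd86 and Nfkb1). The interferon-γ pathway and its induced genes had 0 members in 283 regions, the cDC1 genes 0 in 421, of which 20% were cDC1-restricted, and ubiquitously active genes 0 in 77. At the share over all regions with a gene these 3 lists would hold 1.89, 2.81 and 0.513 members, so the zeros say little. The zero at the cDC1 genes is also partly set by the rule, which limits calls elsewhere. In the cDC1 libraries 60.3% to 78.4% of the regions at these genes were called.

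Markers of other cell types were looked at because several member genes, Il1r2, C5ar1, Ffar2 and Mmp8 among them, are also active in neutrophils or monocytes. Neutrophil markers had 1 member in 48 regions (2.08%, against 0.667% of all regions with a gene), at Mmp8. Over these 48 regions, 39.6% to 68.8% were called in the cDC2 libraries and 45.8% to 68.8% in the cDC1 libraries. Of all regions, the cDC2 libraries called 35454 to 52537 and the cDC1 libraries 47083 to 63425. The comparisons of cDC2 with cDC1 at markers here and below were not adjusted for this. A lower share in cDC2 therefore does not show that a marker is less open there. By gene, the share of calls was higher in cDC2 than in cDC1 at 5 of the 12 markers with a region, lower at 6 and equal at 1. The share was 75% against 0.0% at Mmp8, 63.3% against 56.7% at Csf3r and 0.0% against 16.7% at Ly6g. Mmp8 is 1 of the 5, and 1 of its 2 regions is the member, chosen for its cDC2 calls. Its difference is therefore partly set by the rule. The 1 region at Cxcr2 was called in every cDC2 and cDC1 library and in no migratory one. S100a8, Elane, Camp and Ngp had no region. Monocyte and macrophage markers had 2 members in 187 regions (1.07%), at Cebpb and Cx3cr1, and 41.2% to 68.4% of these regions were called in cDC2 against 51.9% to 70.6% in cDC1. By gene, 8 of 29 markers had the higher share of calls in cDC2, among them C1qa (100% against 16.7%), 19 had the higher share in cDC1, among them Ly6c2 (79.2% against 50% in cDC2), and 2 were equal. The 8 include Cebpb and Cx3cr1, each with a member chosen for its cDC2 calls. B cell markers (0 of 96 regions), NK cell and ILC markers (0 of 75), stromal and epithelial markers (0 of 83) and Langerhans and skin DC genes (0 of 164) had no members, where the share over all regions with a gene gives 0.64, 0.5, 0.553 and 1.09. T cell markers had 2 of 112 (1.79%), near Cd6 and Thy1, and plasmacytoid DC markers 1 of 175 (0.571%), at Runx2. Peak lists do not give the share of other cells in a sort, and their part in the members was not tested.

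The loss of Ifngr1 was compared at the members, since genotype took no part in the rule. Within cDC2, 399 members had as many calls in Cre-positive as in Cre-negative libraries, 151 had more in Cre-positive and 76 more in Cre-negative. The widest splits were 40 members with 1 Cre-negative and 3 Cre-positive calls and 12 with 3 and 1. The list lengths are given beside these counts, and whether they account for the split was not tested. Cre-negative 3, the shortest (37812 peaks), was the only cDC2 library without a call at 98 members. Cre-positive 2, the next shortest (38633 peaks), was the only one at 57. In the widest splits, no single call came from Cre-negative 3 or Cre-positive 2. An exact conditional test of the number of calls with subset as strata, two-sided, over 28 libraries and 60232 regions found 0 differing after Benjamini-Hochberg adjustment (0.0%), and 151 had an unadjusted p under 0.05 (0.251%). None of the 626 members was among those. Fisher's exact test without strata also found 0, with 90 unadjusted and no member among them. The smallest unadjusted exact p of a member was 0.08, at Scpep1 (chr11:88954096-88954382, 1 of 3 Cre-negative and 3 of 3 Cre-positive cDC2 calls), with an adjusted p of 1.0. The rule itself sets this limit: with few calls outside cDC2, no member's totals allow a p under 0.05, and in cDC2 alone 3 against 3 libraries cannot go below 0.1. A genotype difference at single members was therefore not detectable in these lists, and the counts do not show that the genotypes were alike.

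The count of 626 depends on the lengths of the lists. When every floxed list was reduced to its 37812 strongest peaks, the length of the shortest of them, 2378 regions met the rule, of which 229 were among the 626, and the cDC1-restricted regions fell from 7467 to 3958. Of the regions that then met the rule, 8.79% lay at gene ends. The germline lists were reduced likewise, except that 3 of them were already shorter (32088, 35262 and 35997 peaks) and stayed whole. When only the upper 75% of each list by signal was kept, 504 regions met it and 130 of them were among the 626. Leaving out a cDC2 library with 4 calls still required gave 392 (without Cre-negative 1), 387 (without Cre-negative 2), 375 (without Cre-positive 1) and 380 (without Cre-positive 3), against 571 and 539 without the short lists. Leaving out another floxed library gave 626 to 704, and without cDC1 Cre-negative 2 it was 681. With only those migratory libraries whose titles carry plain numbers, as all cDC1 and cDC2 titles do, it was 1062. This left 6 cDC1, 2 migDC2 and 2 DN migDC libraries as the others, without migDC1, and 2 calls among them were still allowed. The rule was thus looser, and an effect of the title series was not tested.

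**Figure D5:**
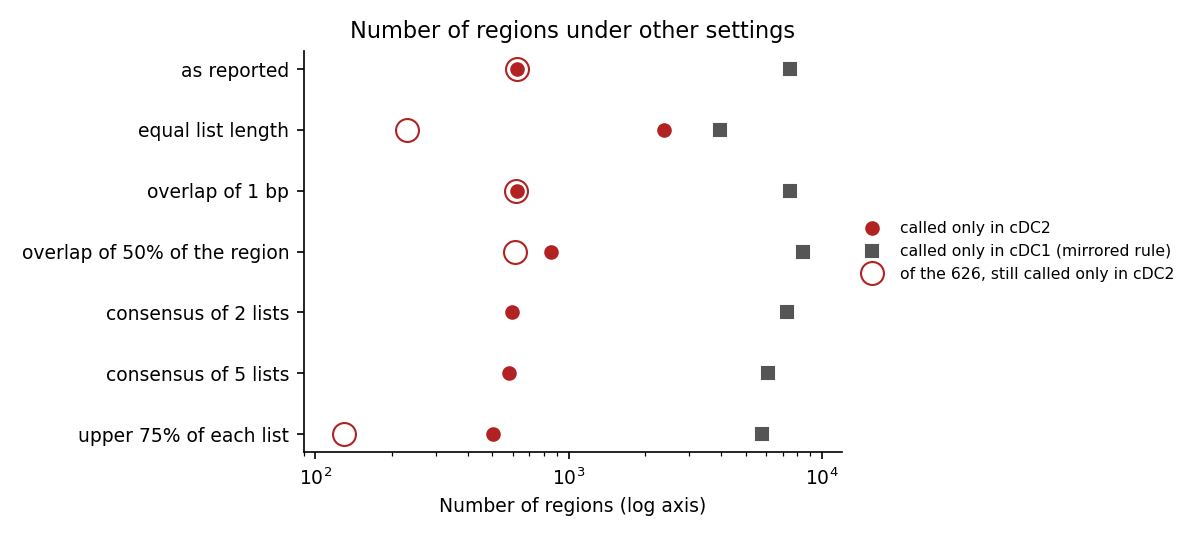
Number of regions (log axis) that met the cDC2 rule (filled circles) and the mirrored cDC1 rule (squares) under each setting, and how many of the 626 regions still met the cDC2 rule (rings, where regions can be matched). At equal list length the filled circle moves to 2378 and the ring to 229.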

How the data were processed

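Omni-ATAC-seq peak lists of 32 libraries were used. Per the submitters' processing notes the tools were Bowtie2, deepTools and Genrich, with build mm10; the sources used here state no versions, settings or handling of multiply mapped reads. The signal per peak deposited by the authors, just above 200 or higher, only ranked peaks within a list, and the deposited −log10 p-value only ordered ties.

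Consensus regions on chromosomes 1 to 19 were stretches of 100 bp or more covered by peaks of at least 3 lists. A call needed a peak sharing at least 50% of its own length, or of the region's length, with the region. Genes were RefSeq protein-coding genes (GRCm38.p6): an end within 1000 bp, else the gene body, else the nearest end within 50000 bp. Of the 489 listed genes 20 had no match. Genotype was tested on regions called in, and missing from, at least 3 of 28 libraries. The exact conditional test ran in Python 3.11.15 (numpy 2.4.6, scipy 1.17.1) and was adjusted by Benjamini-Hochberg at 0.05. It was tried on simulated data in which some regions differed completely between the genotypes over all floxed libraries. No member can have that pattern, so the trial does not bear on the members. Named genes were those with the most members (up to 15), list genes with members (up to 6 per list), the 15 strongest regions of the strictest class, 12 cDC markers and other genes always given, and the members of smallest p. Members and lists were chosen with earlier results of these data known.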

Additional observations from a re-analysis of the deposited data

How the results depend on the processing

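At equal list length the number of regions was 2378, the share at gene ends 8.79%, the share with a germline migDC2 call 11.4% (3 germline lists were shorter and kept whole) and the median percentile 31.9. Requiring no call elsewhere left 277 regions, requiring 6 of 6 cDC2 calls left 173, and with both the share at gene ends was 4.11%, the germline share 0.0% and the percentile 30.6. With plain-titled libraries alone the number of regions was 1062, under a looser rule, since 2 calls were still allowed among fewer other libraries. An overlap of 1 bp (624), of 50% of the region (853) and a consensus of 2 lists (595) or 5 lists (579) stayed within 1.5 times the count of 626. So did the upper 75% of each list (504) and, chosen after seeing the data, cDC2 calls only from peaks of a single region (585). Of the 504, however, only 130 were among the 626, so a similar count does not mean the same regions. Leaving out single libraries gave 375 to 704 regions, and leaving out single cDC2 libraries gave gene end shares of 5.75% to 6.63%, germline shares of 0.175% to 0.267% and percentiles of 22.3 to 25.3. The count of members differing by genotype was 0 under every alternative run, in a design that could not give a call. No paired analysis was possible because the Cre-negative and Cre-positive titles share no number. The lettered migratory titles repeat numbers across subsets, always with the same genotype, and what a shared number stands for is not stated. Depth is unknown for every list, so no detection limit can be given.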

Other observations

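A set of 27 members went against the order of list lengths: they were missing from both of the longest cDC2 lists, Cre-negative 2 and Cre-positive 3, and present in the 4 others. Of these, 15 had no gene within 50000 bp and 14 started below position 3300000 of their chromosome, where 16 of all 626 members and 205 of all 88757 regions lay. They included all 7 members of the cluster at chr17:3007961-3036877 and 3 of the 4 at chr4:3050062-3067278, beside the first assembled bases of these chromosomes, and 3 of the 7 members at chr7:64077035-64087781 near Gm45988. Of the 27, 20 were also called in cDC1 Cre-negative 2, which had calls at 54 of the other 599 members, and 1 had a call in a migratory library. These regions were picked out after their values were seen, and whether reads there were placed uniquely was not tested.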
